A study of Homo sapiens with 9 samples.

Results

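Chromatin accessibility was examined around 7 inducible chemokine genes, CXCL8 (also called IL8), CCL3, CCL4, CCL5, CCL20, XCL1 and XCL2, in Jurkat cells, a line grown from a human T cell leukaemia. FAIRE-seq sequences DNA that is not held in nucleosomes, and 4 FAIRE peak lists were used. Peaks of these lists that overlapped or touched were joined, and a merged region was assigned to a gene when it lay within the gene body or within 50 kb of its transcriptional start site (TSS). This gave 15 regions at 6 of the 7 genes, out of 40703 merged regions on chromosomes 1 to 22, X and Y. CCL3 had none.

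The series held 9 Jurkat samples, of which 8 were FAIRE libraries and 1 was total input DNA mixed equally from unstimulated and stimulated cells. Cells were non-stimulated (NS), stimulated with PMA and ionomycin (ST), stimulated and then kept without stimulus (SW), or re-stimulated (RS), each after DMSO as vehicle or after rottlerin, a PKC inhibitor. Of the 4 lists, NS DMSO came by its label from unstimulated vehicle-treated cells, and NS rottlerin from unstimulated cells given 15 µM rottlerin for 1 h. SW DMSO and SW rottlerin came from cells given the same pre-treatments, then 24 ng/mL PMA with 1 µM ionophore for 4 h, a wash and 1 day of culture. The 4 h is that of the labels, and the study's methods give a shorter first stimulation. The other 5 samples, which include the ST and RS libraries, were not analysed here.

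The labels of the lists and the study's methods conflict. The 4 lists merged into 40731 regions before the 28 outside the main chromosomes were left out. The methods describe the merging of peaks from the 4 DMSO samples, and the total they give is the same, whereas the labels name 2 DMSO and 2 rottlerin samples. Each list is therefore called by its label, and no difference between lists is read as an effect of rottlerin or of stimulus withdrawal. Each list is 1 library, so no test between lists was possible, the values have no replicate error, and the sequencing depth behind them is unknown. Fold enrichment is the FAIRE signal over total input in a peak, and a list without a peak in a region has no value there, which does not show that the chromatin was closed.

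Chemokines are small secreted proteins that guide leukocytes by binding to G protein-coupled receptors on their surface. CXCL8 attracts neutrophils. CCL3, CCL4 and CCL5 attract T cells, monocytes and natural killer cells, CCL20 attracts CCR6-bearing lymphocytes and dendritic cells, and XCL1 and XCL2 attract XCR1-bearing dendritic cells. Activated T cells transcribe these genes through factors such as NFAT, AP1 and NFκB.

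The sequences of 6 of the 15 regions are given first, because they are 4 of the regions at CXCL8, CCL4 and CCL20, where no region had an NS DMSO peak, the CCL5 region with peaks in both SW lists, and the XCL2 region closest to a TSS of that pair. They are the plus strand of GRCh37, 5′ to 3′. For regions called in several lists, "shared stretch" is the part inside the peak of every list that had one. Capitals mark matches to AP1 (TGANTCA), NFAT (TGGAAA) or NFκB words on either strand.
CXCL8, 28.4 kb upstream, chr4:74577704-74577989: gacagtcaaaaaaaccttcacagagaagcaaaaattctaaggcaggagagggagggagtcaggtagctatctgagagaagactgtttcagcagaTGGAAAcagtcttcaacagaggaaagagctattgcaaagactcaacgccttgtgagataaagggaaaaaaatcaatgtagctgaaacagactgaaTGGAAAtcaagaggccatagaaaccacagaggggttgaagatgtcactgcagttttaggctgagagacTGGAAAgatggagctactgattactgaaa
CCL20 promoter, shared stretch, chr2:228670284-228670432: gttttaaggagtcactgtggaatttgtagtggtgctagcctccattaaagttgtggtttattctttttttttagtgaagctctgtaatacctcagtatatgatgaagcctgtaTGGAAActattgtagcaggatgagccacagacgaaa
CCL20, 12.5 kb downstream of the TSS, shared stretch, chr2:228682997-228683186: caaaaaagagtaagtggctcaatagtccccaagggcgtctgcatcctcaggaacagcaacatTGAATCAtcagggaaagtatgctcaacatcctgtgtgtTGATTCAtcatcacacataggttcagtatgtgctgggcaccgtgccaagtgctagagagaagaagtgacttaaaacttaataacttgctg
CCL5, 17.7 kb upstream, shared stretch, chr17:34225348-34225578: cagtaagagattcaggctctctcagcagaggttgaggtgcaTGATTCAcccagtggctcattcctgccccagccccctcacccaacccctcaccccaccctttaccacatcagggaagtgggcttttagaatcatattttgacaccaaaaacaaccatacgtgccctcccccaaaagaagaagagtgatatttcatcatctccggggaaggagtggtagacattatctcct
CCL4, 45.3 kb downstream of the TSS, chr17:34476414-34476595: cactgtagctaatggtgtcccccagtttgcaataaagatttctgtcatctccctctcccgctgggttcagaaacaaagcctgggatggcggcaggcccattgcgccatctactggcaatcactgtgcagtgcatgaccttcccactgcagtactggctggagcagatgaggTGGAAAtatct
XCL2, 7.8 kb downstream of the TSS, shared stretch, chr1:168504872-168505113: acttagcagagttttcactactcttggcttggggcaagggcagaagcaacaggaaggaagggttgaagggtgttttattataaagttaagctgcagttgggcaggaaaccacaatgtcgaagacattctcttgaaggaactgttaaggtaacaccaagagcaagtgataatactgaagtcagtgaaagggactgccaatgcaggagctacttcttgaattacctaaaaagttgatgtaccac
The XCL2 stretch held none of these words, and no NFκB word was present in any of the 6 sequences.

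CXCL8 was the gene at which 1 list held all peaks. The gene lies on chromosome 4 from 74606236 to 74609433 on the plus strand (ENSG00000169429). The region 32.4 kb upstream, 213 bp wide, had a fold enrichment of 4.96 in SW rottlerin and no peak in NS DMSO, SW DMSO or NS rottlerin. The region 28.4 kb upstream, 286 bp wide, had 3.77 in SW rottlerin and again no peak in the other 3 lists. The stronger peak exceeded 77.3% of all SW rottlerin peaks in fold enrichment and the weaker one 39.0%, so both were ordinary peaks of that list.

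Neither CXCL8 region was at the promoter. The nearest peak to the TSS lay 28.2 kb away in SW rottlerin, 86.5 kb in NS DMSO, 275.7 kb in SW DMSO and 275.6 kb in NS rottlerin. The 32.4 kb region lay in an intron of the lncRNA gene ENSG00000289530, and the 28.4 kb region in an intron of the lncRNA gene UMLILO. No other protein-coding TSS lay within 50 kb of CXCL8. The 32.4 kb region had 1 AP1 word and 1 NFAT word, and the 28.4 kb region, printed above, had 3 NFAT words. The 28.4 kb region also contained an exact match to a FAIRE-PCR primer used at IL8, at bases 74577804 to 74577826. Its partner had no exact match nearby, so the amplified fragment was not placed. The partner's letters were read from a page image and may be misread. The paper placed IL8 among genes with a region of increased accessibility in RS cells only. By PCR it found similar IL8 accessibility in NS cells and in SW cells rested for longer than here. It also reported that accessibility near IL8 was sensitive to rottlerin. A peak in the list labelled SW rottlerin alone does not match this, and the label was not settled here.

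CCL20 was the 1 gene of the 7 with a region within 1 kb of its TSS. It lies on chromosome 2 from 228670455 to 228682280 on the plus strand (ENSG00000115009). The promoter region, at 228669845 to 228670472 with its centre 297 bp upstream of the TSS, had a fold enrichment of 3.47 in SW DMSO and 4.47 in SW rottlerin, and no peak in NS DMSO or NS rottlerin. The lists with a peak at the promoter were thus those labelled SW. As the labels are in doubt, this is not read as a difference between SW and NS cells. The peaks shared 149 bp of the 628 bp region. The SW rottlerin peak covered the TSS, and the SW DMSO peak ended 23 bp before it. This TSS is the most 5′ of the annotated starts, and the other starts of CCL20, at 228678558, 228678559 and 228680085, had no region within 1 kb.

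The second CCL20 region, 12.5 kb downstream of the TSS and just past the 3′ end of the gene, had 5.05 in SW DMSO, 4.22 in NS rottlerin, 4.60 in SW rottlerin and no peak in NS DMSO. Among the 15 it alone had a peak in each list except NS DMSO, a pattern of 7.08% of all merged regions. The stretch of 190 bp shared by its 3 peaks contained both AP1 words, TGAATCA and TGATTCA. The nearest NS DMSO peak was 492.7 kb from this region and 479.8 kb from the promoter region. No other protein-coding TSS lay within 50 kb of the CCL20 TSS.

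**Figure D1:**
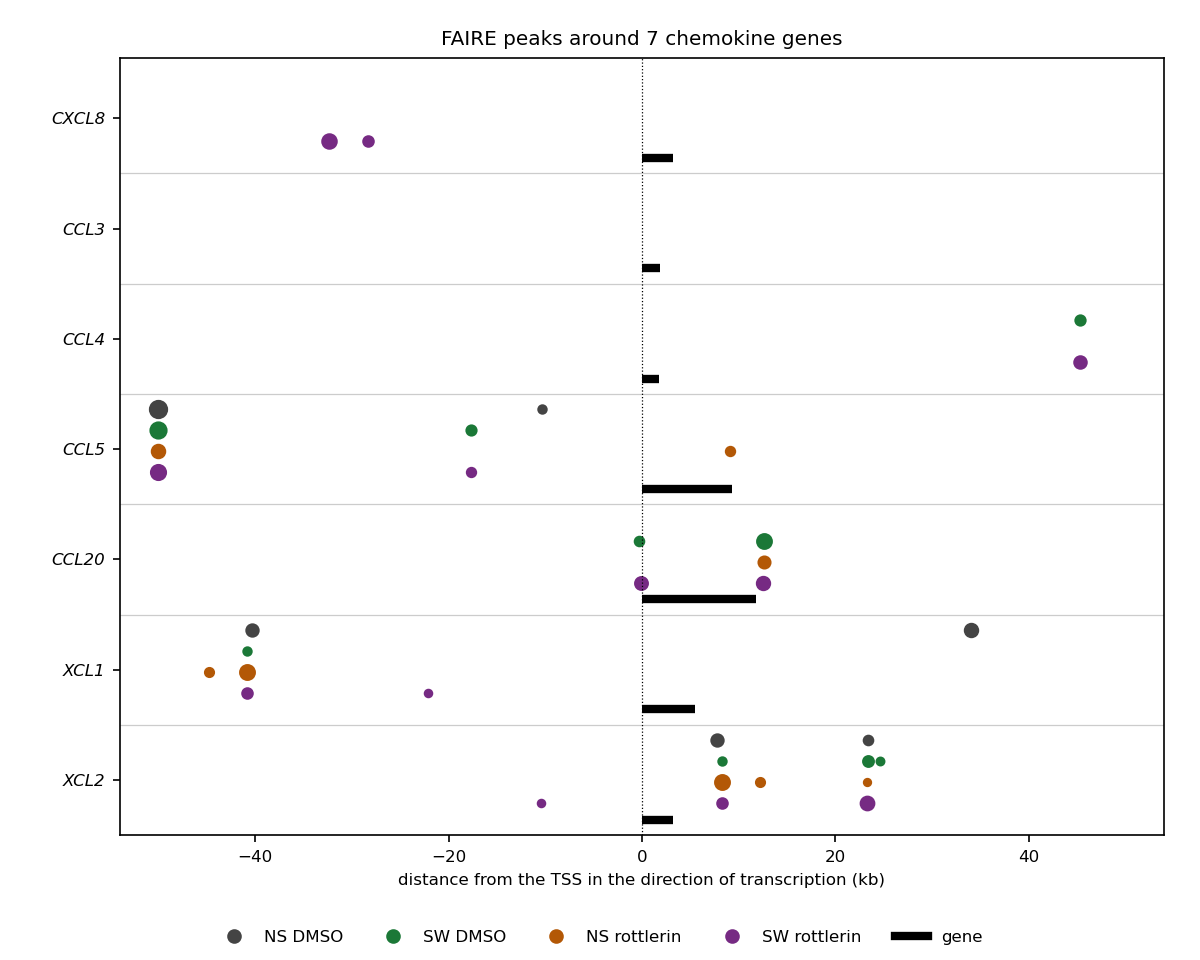
FAIRE peaks around the 7 genes, by distance from the TSS in kb along the direction of transcription (horizontal axis) and by gene (vertical axis). Each point is the centre of a peak of 1 library, its diameter growing linearly with fold enrichment, with a lane and colour for each list, and black bars are the genes; CXCL8 has 2 points of SW rottlerin alone, CCL3 has none, and CCL20 alone has points at the TSS.

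CCL3 and CCL4 are neighbours on chromosome 17, and neither had a peak near its promoter. CCL3 lies from 34415602 to 34417515 on the minus strand (ENSG00000277632). The nearest peaks to its TSS were 58.9 kb away in SW DMSO and SW rottlerin and 159.6 kb away in NS DMSO and NS rottlerin. CCL4 lies from 34431220 to 34433014 on the plus strand (ENSG00000275302). Its 1 region, 45.3 kb downstream of the TSS, had a fold enrichment of 3.69 in SW DMSO and 4.36 in SW rottlerin, and no peak in NS DMSO or NS rottlerin. The lists with a peak there were those labelled SW, which is likewise not read as a difference between cell states. The nearest NS DMSO peak was 218.5 kb away. The same region lay 59.0 kb from the CCL3 TSS, outside the limit. Its nearest protein-coding TSS was that of TBC1D3E, at 27.4 kb, and it lay in an intron of the lncRNA gene ENSG00000276241.

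CCL3 and CCL4 have near-identical copies on the same chromosome, CCL3L and CCL4L genes. Some short reads there cannot be told apart from those of a copy, more at CCL4 than at CCL3. The CCL3 gene matched a copy at 94.0% identity over 1924 bp and the CCL4 gene one at 95.5% over 1818 bp. Of the 50-base stretches within 1 kb of the TSS, the length of the reads, 4.20% at CCL3 and 30.5% at CCL4 also occurred in a copy. None of the 15 regions had a copy of 100 bp or more at 90% identity.

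CCL5 had 4 regions, each with a different set of lists. The gene lies on chromosome 17 from 34198495 to 34207797 on the minus strand (ENSG00000271503). The region 17.7 kb upstream, at 34225102 to 34225816, had a fold enrichment of 3.66 in SW DMSO and 3.40 in SW rottlerin and no peak in NS DMSO or NS rottlerin. It lay in an intron of a transcribed processed pseudogene (ENSG00000270977), and its shared stretch of 231 bp held 1 AP1 word, TGATTCA. This region and those 45.3 kb from CCL4 and at the CCL20 promoter were the 3 of 15 with peaks in SW DMSO and SW rottlerin and in no other list, a pattern of 6.26% of all merged regions.

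A pair of further CCL5 regions had a peak in 1 list each. The region 10.4 kb upstream, at 34217838 to 34218476, had 3.13 in NS DMSO and no peak in the other 3 lists. The region 9.2 kb downstream of the TSS, at 34198561 to 34198725 in the 3′ UTR of CCL5, had 3.41 in NS rottlerin and no peak in the other 3. The SW DMSO and SW rottlerin lists each had 2 CCL5 regions, as did the NS lists, so the number of regions did not separate the lists at this gene. The closest peak to the CCL5 TSS was 9.1 kb away.

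The fourth CCL5 region was at the edge of the limit and belongs to another promoter. It lay 50.0 kb upstream of CCL5, at 34257702 to 34257960, and 54 bp upstream of the TSS of RDM1. Its fold enrichment was 5.78 in NS DMSO, 5.46 in SW DMSO, 4.64 in NS rottlerin and 5.14 in SW rottlerin, the highest value of the 15 regions in every list but NS rottlerin. The peaks of the 4 lists coincided over 222 of 259 bp.

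XCL1 and XCL2 are a duplicated pair on chromosome 1 that face away from each other, and together they had 6 regions, 3 of them within the limit of both genes. XCL2 lies from 168510006 to 168513235 on the minus strand (ENSG00000143185) and XCL1 from 168545843 to 168551307 on the plus strand (ENSG00000143184). The region 7.8 kb downstream of the XCL2 TSS, at 168504787 to 168506114, had 4.31 in NS DMSO, 3.12 in SW DMSO, 5.07 in NS rottlerin and 3.77 in SW rottlerin. The region 23.3 kb downstream of it, at 168489658 to 168490177, had 3.49 in NS DMSO, 3.86 in SW DMSO, 2.79 in NS rottlerin and 4.73 in SW rottlerin. At the first of these, the values labelled NS were above those labelled SW, and at the second the order was reversed. Lists that share a state in their labels are not replicates, as they differ in label by rottlerin and the labels are in doubt. With 1 library per list the spread of such values is unknown.

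The peaks of the 7.8 kb region differed in extent. The NS DMSO peak was 1324 bp wide and the other 3 were 246 to 327 bp wide, all at 1 end of it, and 242 bp were common to the 4. At the 23.3 kb region 152 of 520 bp were common. These and the RDM1 promoter region were the 3 found in all 4 lists.

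The other 4 regions of the pair had a peak in 1 list each. The region 34.0 kb downstream of the XCL1 TSS had 4.62 in NS DMSO, the region 12.2 kb downstream of the XCL2 TSS had 3.34 in NS rottlerin, the region 24.7 kb downstream had 2.97 in SW DMSO, and the region 10.4 kb upstream of XCL2 had 2.86 in SW rottlerin. The last 2 were among the weakest peaks of their lists, above 6.04% and 3.82% of the peaks in fold enrichment. All 6 regions lay outside annotated genes. No peak lay within 7.1 kb of the XCL2 TSS or 22.1 kb of the XCL1 TSS. XCL1 and XCL2 share 97.9% of bases over 1644 bp at their TSSs, where 46.1% of 50-base stretches occurred in both.

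**Figure D2:**
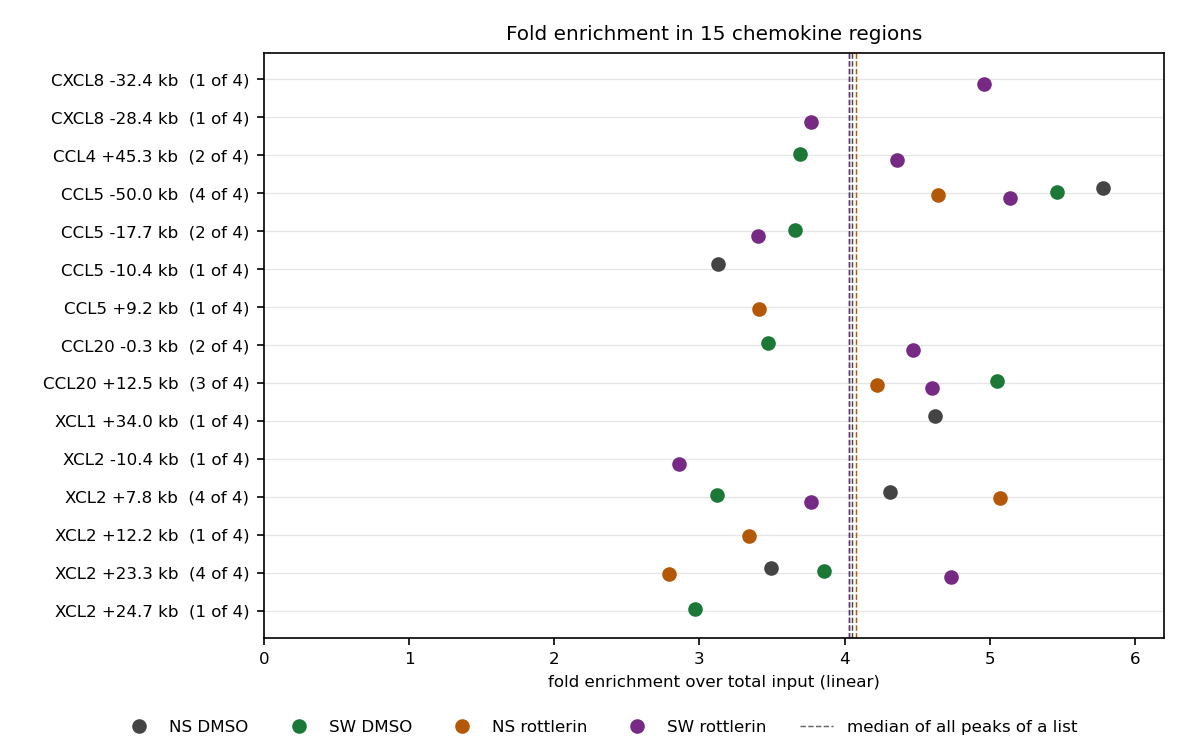
Fold enrichment over total input (linear horizontal axis) in the 15 regions (vertical axis, with the number of lists that have a peak). Each point is the peak of 1 library, an absent point means no peak in that list, and dashed lines are the medians of all peaks in the 4 lists, 4.03 to 4.08; the points reach from 2.79 to 5.78 and lie on both sides of these medians.

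**Figure D3:**
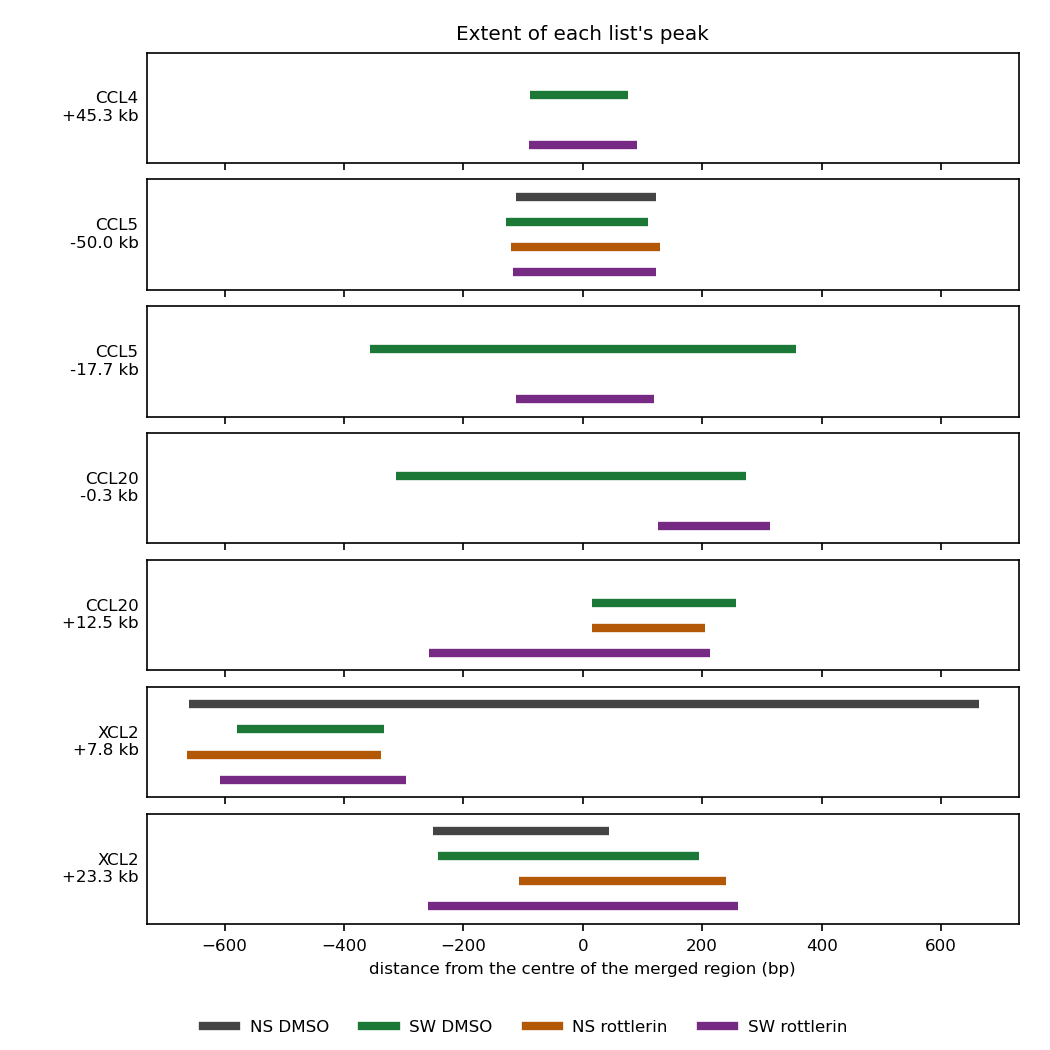
Extent of each list's peak in the 7 regions with peaks in at least 2 lists, in bp from the centre of the merged region (horizontal axis), with a bar for each list that has a peak. The 4 bars at 50.0 kb upstream of CCL5 nearly coincide, whereas the NS DMSO bar 7.8 kb from the XCL2 TSS is 1324 bp long against 246 to 327 bp for the others.

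Counted over the genes, 10 of the 15 regions (66.7%, 95% Wilson interval 41.7 to 84.8) had no NS DMSO peak, against 53.5% of all merged regions. The interval included the share of all regions. A peak in all 4 lists was present at 3 regions (20%, interval 7.05 to 45.2), against 26.6% of all. These intervals cover counting error alone. At CXCL8, CCL4 and CCL20, no region had an NS DMSO peak. Of the 20163 protein-coding genes, 13.3% had regions but none with an NS DMSO peak. That total includes the 2910 genes without any region, which cannot meet the condition. Genes with few regions meet it more easily, and CXCL8, CCL4 and CCL20 had 2, 1 and 2 regions against a median of 3. The share among genes with equally few regions was not computed, so 13.3% does not measure how unusual these genes are. XCL1, XCL2 and CCL5 each had 2 regions with an NS DMSO peak.

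Regions found in a single list numbered 8, with 3 in 2 lists and 1 in 3 lists. SW rottlerin alone accounted for 3 of the 15, against 18.2% of all regions, and NS rottlerin alone for 2, against 8.42%. NS DMSO alone accounted for 2, against 7.83%, and SW DMSO alone for 1, against 4.32%. SW rottlerin was also the longest list, with 30409 peaks on the main chromosomes against 18977 to 23835 in the others. It had a peak at 10 of the 15 regions (66.7%) against 74.5% of all regions, and SW DMSO at 8 (53.3%) against 49.3%. NS DMSO had a peak at 5 (33.3%) against 46.5%, and NS rottlerin at 6 (40.0%) against 58.4%. With the 18977 highest-scoring peaks of each list, 61.5% of the 13 regions left had no NS DMSO peak and 15.4% had a peak in all 4 lists. The counts for single lists and the shares over all regions were not recomputed at equal list length.

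A region within 1 kb of the TSS was present at 1 of the 7 genes (14.3%, interval 2.57 to 51.3), against 44.9% of protein-coding genes, a share that the interval included. A region within 50 kb was present at 6 of 7 genes, against 85.6%, so having a region nearby did not set the genes apart. Protein-coding genes had a median of 3 regions, whereas CCL3 had 0, CCL4 1, CXCL8 and CCL20 2 each, CCL5 and XCL1 4 each and XCL2 5. For 12 of the 15 regions the nearest protein-coding TSS was that of one of the 7 genes. The 15 regions had a median of the highest fold enrichment of 4.36, against 4.10 for all merged regions, and a median width of 310 bp against 294 bp.

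At the limit was the RDM1 promoter region, which reached within 50 kb of the CCL5 TSS with its edge while its mid-point was 50034 bp away. Just outside were the region 55.9 kb upstream of the XCL1 TSS, which is the 23.3 kb region of XCL2, and the region 59.0 kb upstream of CCL3, which is that of CCL4. Between 50 and 100 kb, CXCL8 had a region 86.7 kb upstream with 3.76 in NS DMSO alone and one 92.3 kb downstream, near CXCL6, with 2.72 in SW rottlerin alone.

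Motif words were counted on both strands in the 300 bp centred on each region, which reach past the edges of narrower regions. NFAT words (TGGAAA) were present in 6 of 15 regions, against 27.9% of all merged regions. They were found at both CXCL8 regions, at CCL4, 17.7 kb upstream of CCL5, and at the XCL2 regions 7.8 kb downstream and 10.4 kb upstream. At the last of these the word lay beside the 161 bp region. In the regions called in several lists, the word lay in the peak of a single list. This was SW rottlerin at CCL4, SW DMSO at CCL5 and NS DMSO 7.8 kb downstream of XCL2. AP1 words (TGANTCA) were present in 3, against 17.9%, namely the CXCL8 region 32.4 kb upstream, the CCL20 region 12.5 kb downstream and the CCL5 region 17.7 kb upstream. RUNX words (TGTGGT) were in 5 regions, against 32.8%, and GATA words (AGATAA) in 5, against 21.0%. ETS words (CNGGAAG), which share the letters GGAA with the NFAT word, were in 2 regions, against 32.1%.

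The bHLH word CACCTG was in 4 regions, against 21.4%, and CAGCTG in 1, against 17.1%. The EGR word (GCGNGGGCG) was in 1 region, that at the RDM1 promoter, against 3.89%. The NFκB word was in none of the 15, which allows a share of up to 20%, and in 4.33% of all regions. Outside the central 300 bp, AP1, NFAT or NFκB words were present in 3 regions. The CCL20 region 12.5 kb downstream held 1 NFκB word, in the part covered by the SW rottlerin peak alone. The CCL20 promoter region held 1 AP1 word, TGACTCA, in the part covered by the SW DMSO peak alone, and 2 NFAT words, 1 of them in the shared stretch printed above. The XCL2 region 7.8 kb downstream held 1 AP1 word, TGAATCA, and 2 NFAT words, all in the part covered by the NS DMSO peak alone. A match is a description of the letters and was not tested as a binding site.

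The rest of the chemokine family was counted the same way. Of 41 other chemokine ligand genes, 30 had a region within 50 kb and 0 had one within 1 kb of the TSS, which allows a share of up to 7.32%. Of their 41 regions, 23 (56.1%, interval 41.0 to 70.1) had no NS DMSO peak. CXCL17, CXCL11 and CCL17 had the most such regions, 3 each, with highest fold enrichments of 5.78, 5.19 and 4.76. CXCL11 is a ligand of CXCR3 on activated T cells and CCL17 a ligand of CCR4. The copies of CCL3 and CCL4 had few regions, with 1 at CCL3L3, which is the CCL4 region, and 0 at CCL3L1, CCL4L1 and CCL4L2.

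Of 23 chemokine receptor genes, 22 had a region within 50 kb and 9 had one within 1 kb of the TSS, against 85.6% and 44.9% of protein-coding genes. Of their 99 regions, 49 (49.5%, interval 39.9 to 59.2) had no NS DMSO peak. CXCR5, which guides lymphocytes into B cell follicles, had 7 such regions among 8, and CCRL2 had 6 among 7. Receptors of CXCL8, CCL20, XCL1 and XCL2, named for that role, differed in their number of regions. CCR6, the receptor of CCL20, had 3 regions, 2 of them without an NS DMSO peak, and XCR1, the receptor of XCL1 and XCL2, had 8, of which 4 lacked one. CXCR1, a receptor of CXCL8, had 1 region, nearest to the TSS of ARPC2 and with a peak in all 4 lists, and CXCR2, the other receptor, had 0.

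**Figure D4:**
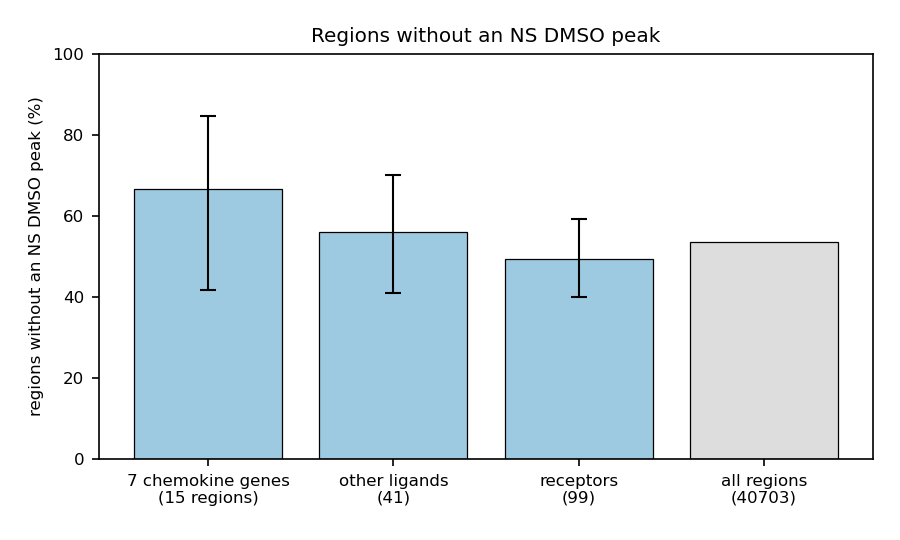
Percent of merged regions without an NS DMSO peak (vertical axis) at the 7 chemokine genes, at other chemokine ligand genes, at chemokine receptor genes and over all regions, with the number of regions in brackets. Error bars are 95% Wilson intervals, and those of the 3 gene lists include the 53.5% of all regions.

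The genes with the most similar pattern were sought by the Euclidean distance over 4 values, the highest fold enrichment within 50 kb in each list with 0 for no peak, leaving out genes that share a region. ASRGL1 was closest to CXCL8, at a distance of 0.00158, with 4.96 in SW rottlerin alone. MERTK was closest to CCL4 (0.0434), with 3.66 in SW DMSO and 4.39 in SW rottlerin. SELENOT was closest to CCL5 (0.207), but the 4 CCL5 values are those of the region at the RDM1 promoter. IGF1 was closest to CCL20 (0.336), HSPB7 to XCL1 (0.414) and SVOPL to XCL2 (0.16). The CCL4 values are those of the region nearest to the TBC1D3E TSS. For XCL1, the values 3.12 in SW DMSO, 5.07 in NS rottlerin and 3.77 in SW rottlerin are those of the region 7.8 kb from the XCL2 TSS. The XCL2 values come partly from that region and partly from the one at 23.3 kb. CCL3 shared the absence of any region with 2910 protein-coding genes in all.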

How the data were processed

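FAIRE-seq was performed by the authors on Jurkat cells, 1 library per condition, with single-end reads of 50 bases. Per the methods, the authors used CutAdapt for adapters, Bowtie2 for mapping to Hg19, Picard for duplicate reads and MACS2 in its broad mode, against the input library, for peaks. Their versions are not given in the sources used here. The deposited lists hold, for each peak, a score (10 times the −log10 q-value with decimals dropped), the fold enrichment as a ratio over input, and the −log10 of the p-value and q-value. Depth per list is unknown.

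Peaks on chromosomes 1 to 22, X and Y were joined where they overlapped by 1 bp or touched, and the total was checked with bedtools 2.31.1. Genes and the TSS (5′ end of the gene) came from GENCODE release 44 on GRCh37, and sequences were read from GRCh37. A region's value in a list is its highest fold enrichment, and distances run from the region's mid-point, except those to the nearest peak, which run to its edge. Motif windows were 300 bp around the mid-point. Copies were sought with BLAST+ 2.17.0 at 90% identity, over at least 500 bp for genes. Shares have 95% Wilson intervals and, for a count of 0, a limit of 3 counts. All 7 genes and, as each had 6 regions or fewer, all their regions are named, with the most similar gene for each; of the other ligands and receptors, the 3 with the most regions without an NS DMSO peak, ties by highest fold enrichment, are named, except for an item that is not reported here. Joining, assignment and motif search were tested on simulated data. Alternatives were the distance, the score limit, the overlap, the TSS definition and leaving out each list. The genes, lists and motif words were chosen with earlier results of these data known.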

Additional observations from a re-analysis of the deposited data

How the results depend on the processing

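Over 40 values of the main counts and shares under alternatives, 38 stayed within 1.5 times the count or within the Wilson interval. With 15 regions those intervals are wide, so a share that stays within its interval says little. The exceptions came from the higher-scoring 50% of each list, which left 7 regions in place of 15 and 0 genes in place of 1 with a region at the TSS, since both CCL20 promoter peaks were lost. With limits of 25 and 100 kb there were 10 and 21 regions, at 4 and 7 genes, and both counts at 25 kb lay exactly at the bound of 1.5 times. Leaving out each list but NS DMSO gave 12 to 14 regions and 58.3 to 64.3% without an NS DMSO peak. Of 154 counts for single genes, 33 moved. CXCL8 had 0 regions without the SW rottlerin list and 0 at 25 kb, where XCL1 fell from 4 to 1. Regions without an NS DMSO peak went from 2 to 1 at CCL5 and XCL1 without the NS rottlerin list, and at XCL1 without the SW rottlerin list. CCL5 had 1 region in place of 4 in the higher-scoring 50%, and XCL2 had 3 in place of 5 with equal peak numbers. Requiring the mid-point within 50 kb dropped the RDM1 promoter region, leaving 14 regions, 3 of them at CCL5, and 71.4% without an NS DMSO peak. Requiring an overlap of 50% of both peaks gave 19 regions, as some peaks of different lists then counted apart. This raised CCL20 from 2 to 4, CCL5 from 4 to 5, XCL1 from 4 to 5 and XCL2 from 5 to 6. Keeping the 12 regions nearest to one of the 7 genes, an alternative chosen after seeing the data, left CCL4 with 0 and the share without an NS DMSO peak at 66.7%. No paired analysis was possible because each list is 1 library and no test was made. Depth, replicates and the identity of the lists limit these descriptions.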

Other observations

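Among chemokine receptor genes, 9 of 23 had a region within 1 kb of the TSS, against 44.9% of protein-coding genes. CCR7, which guides T cells to lymph nodes, had no NS DMSO peak at its TSS and fold enrichments of 3.41 in SW DMSO, 3.22 in NS rottlerin and 3.55 in SW rottlerin. CCR2, a receptor for CCL2, had the same set of lists at its TSS, with 2.76 in SW DMSO, 3.46 in NS rottlerin and 3.72 in SW rottlerin. CCRL2 had 3.75 in NS rottlerin and 4.27 in SW rottlerin at its TSS and no peak in either DMSO list. By contrast, CXCR3 had 4.46 in NS DMSO, 4.35 in SW DMSO, 5.99 in NS rottlerin and 6.04 in SW rottlerin at its TSS, and CCR4 had 3.17, 3.25, 3.71 and 3.95 in the same order. CCR7, CCR2 and CCRL2 were the 3 of these 9 receptor genes whose TSS regions all lacked an NS DMSO peak. Of all merged regions, wherever they lay, 53.5% lacked one, and the share for TSS regions alone was not computed. CXCR3 and CCR4 were chosen after their values were seen.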
